A study of Mus musculus with 23 samples.

Results

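Transcript counts of 40 genes of mitosis and the spindle checkpoint were followed in cultured mouse CD4+ T cells. The genes were chosen by name for their known roles in cell division, with earlier results of these data known. They were matched by symbol to the gene table. All 40 were found among its 53379 gene IDs, and all 40 were among the 16882 genes with enough counts to be tested. The cells came from the spleens of C57BL/6 mice, were sorted as CD45+CD3+CD4+CD8-, and were kept for 72 h with IL-2 at 30 IU/ml. Unstimulated cultures held IL-2 alone, and stimulated cultures also held antibodies against CD3 and CD28, each without niacin or with 5 mM niacin. The culture protocol names IL-2 for the unstimulated cells, while their sample labels name none. The wild-type-labelled groups were unstimulated, unstimulated with niacin, stimulated, and stimulated with niacin. The same 4 treatments were given to cells labelled Gpr109a-/-, a deletion of the niacin receptor gene now called Hcar2, here called knockout-labelled. Each of the 8 groups held 3 libraries, except for 2 libraries (numbers 2 and 3) of unstimulated knockout-labelled cells with niacin. The labels do not say whether the libraries of a group came from different animals. The p-values therefore reflect library-to-library spread, part of which may be technical.

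Cells enter mitosis when cyclin B binds and activates the kinase Cdk1, helped by the Cdc25 phosphatases, the Polo kinase Plk1 and Aurora A. The spindle checkpoint then holds the anaphase-promoting complex (APC/C) inactive until every kinetochore, the protein plate on each centromere, is attached to spindle fibres. Once it is satisfied, Cdc20 activates the APC/C, securin (Pttg1) and cyclin B are destroyed, separase (Espl1) cuts cohesin, and the cell divides in cytokinesis. Most of these genes are transcribed late in the cell cycle, and resting T cells that receive signals through CD3 and CD28 leave quiescence and divide.

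The shallowest library (unstimulated, knockout label, number 3) held 13205565 counts, and the others held 20604050 to 30090018, with a median of 24007159 over all 23. The name of its count column alone lacked the tag jax, and the part of this in the results was not tested. Hcar2 went against the labels: 10 of the 11 knockout-labelled libraries held Hcar2 counts (169 in all), against 1 of the 12 wild-type-labelled libraries (1 count), so genotype is given here as a label only. The 8 markers of CD4 T cells summed to between 3540 and 6018 CPM (counts scaled to a common library size) in every library. Pax5 and Blnk, which define B cells, had group means of at most 0.0275 and 0.338 CPM, while Cd79a of the same list had 1.16 to 6.22 CPM. Csf1r and Siglech of the myeloid list had group means of at most 0.236 and 0.292 CPM, while Lyz2 and Fcgr3 of that list reached 3.30 and 2.76 CPM. Summed markers of CD8 T cells (2 genes) reached at most 29.2 CPM, of B cells (8 genes) 10.8 CPM, of myeloid and dendritic cells (10 genes) 14.2 CPM, and of erythroid cells and platelets (7 genes) 6.15 CPM. The 6 germinal centre and plasma cell markers summed to between 175 and 282 CPM in unstimulated and between 902 and 1281 CPM in stimulated libraries, nearly all of it Xbp1 and Fas. The 6 NK cell markers summed to between 11.2 and 42.1 CPM in unstimulated and between 72.6 and 109 CPM in stimulated libraries, of which Eomes made up group means of 84.0 to 98.6 CPM, with Klra8 at 0 CPM in all groups and Ncr1 at 0 CPM in stimulated cells without niacin. Klrb1c and Klrk1 of the NK cell list had group means of up to 7.49 and 8.76 CPM, both in unstimulated cells. The part of these sums in the results was not tested.

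Stimulated cells held far more mitotic transcripts than unstimulated ones. The CPM of the 40 genes summed to between 8151 and 9038 in the 12 stimulated libraries and to between 1646 and 3916 in the 11 unstimulated ones, so the ranges did not overlap. In 29 of the 40 genes every stimulated library lay above every unstimulated library, a pattern met by 15% of all genes tested, while 11.4% of all genes lay below in the same way and none of the 40 did. With bulk RNA, a larger share of dividing cells and more of a transcript in each cell cannot be told apart.

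**Figure D1:**
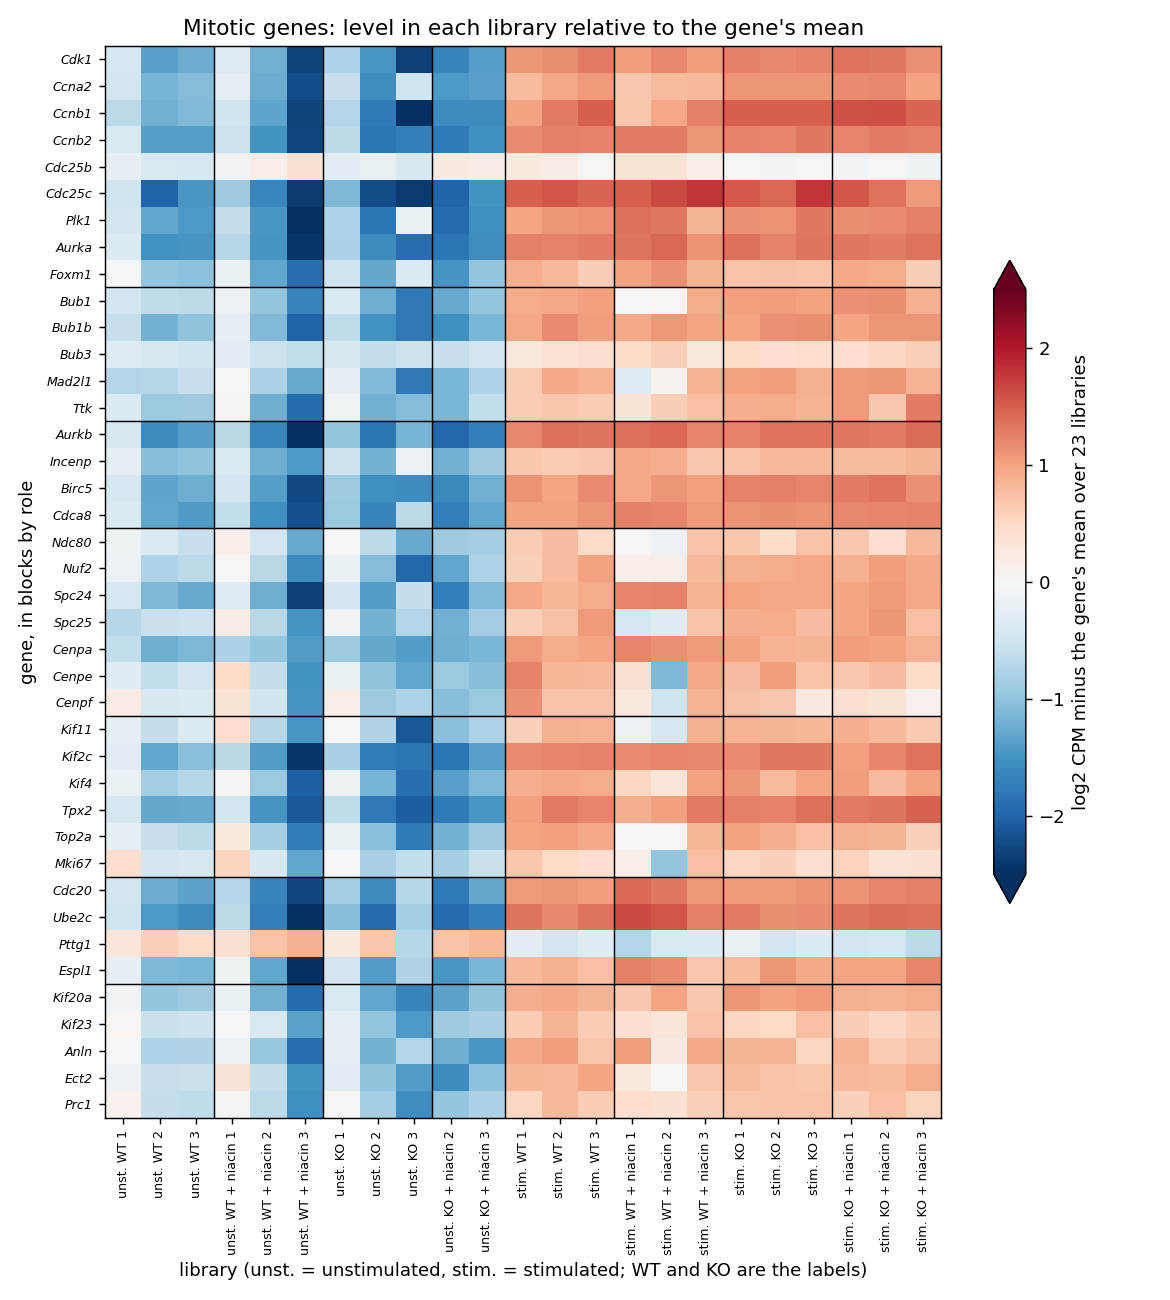
Log2 CPM of each of the 40 genes (rows, in blocks by role) in each of the 23 libraries (columns, by group), minus the gene's mean over all libraries; blue is below and red above the mean. The stimulated libraries on the right are red for nearly all genes, Pttg1 is reversed, Cdc25b is pale throughout, and the unstimulated libraries differ widely within a group.

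In wild-type-labelled cells without niacin, 38 of the 40 genes rose with stimulation (23.4% of all genes did) and 1 fell (21.7% of all genes), by edgeR's quasi-likelihood test with Benjamini-Hochberg adjusted p under 0.05. In knockout-labelled cells 38 rose (background 25.2%) and 0 fell (background 27.5%; 1 fell by DESeq2, and 1 of the 40 was lower at an unadjusted p under 0.05). In wild-type-labelled cells with niacin 32 rose (background 26%) and 1 fell (background 26.6%). In knockout-labelled cells with niacin 38 rose (background 24.5%) and 1 fell (background 25.3%). The median log2 fold change of the 40 genes was 1.49, 1.82, 1.73 and 2.14 in these comparisons, in that order, against -0.07, -0.13, -0.10 and -0.07 over all genes tested. The other 2 genes in wild-type-labelled cells without niacin were Pttg1, which fell, and Mki67, which missed the threshold. Pttg1 and Cdc25b were also the exceptions in knockout-labelled cells.

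**Figure D2:**
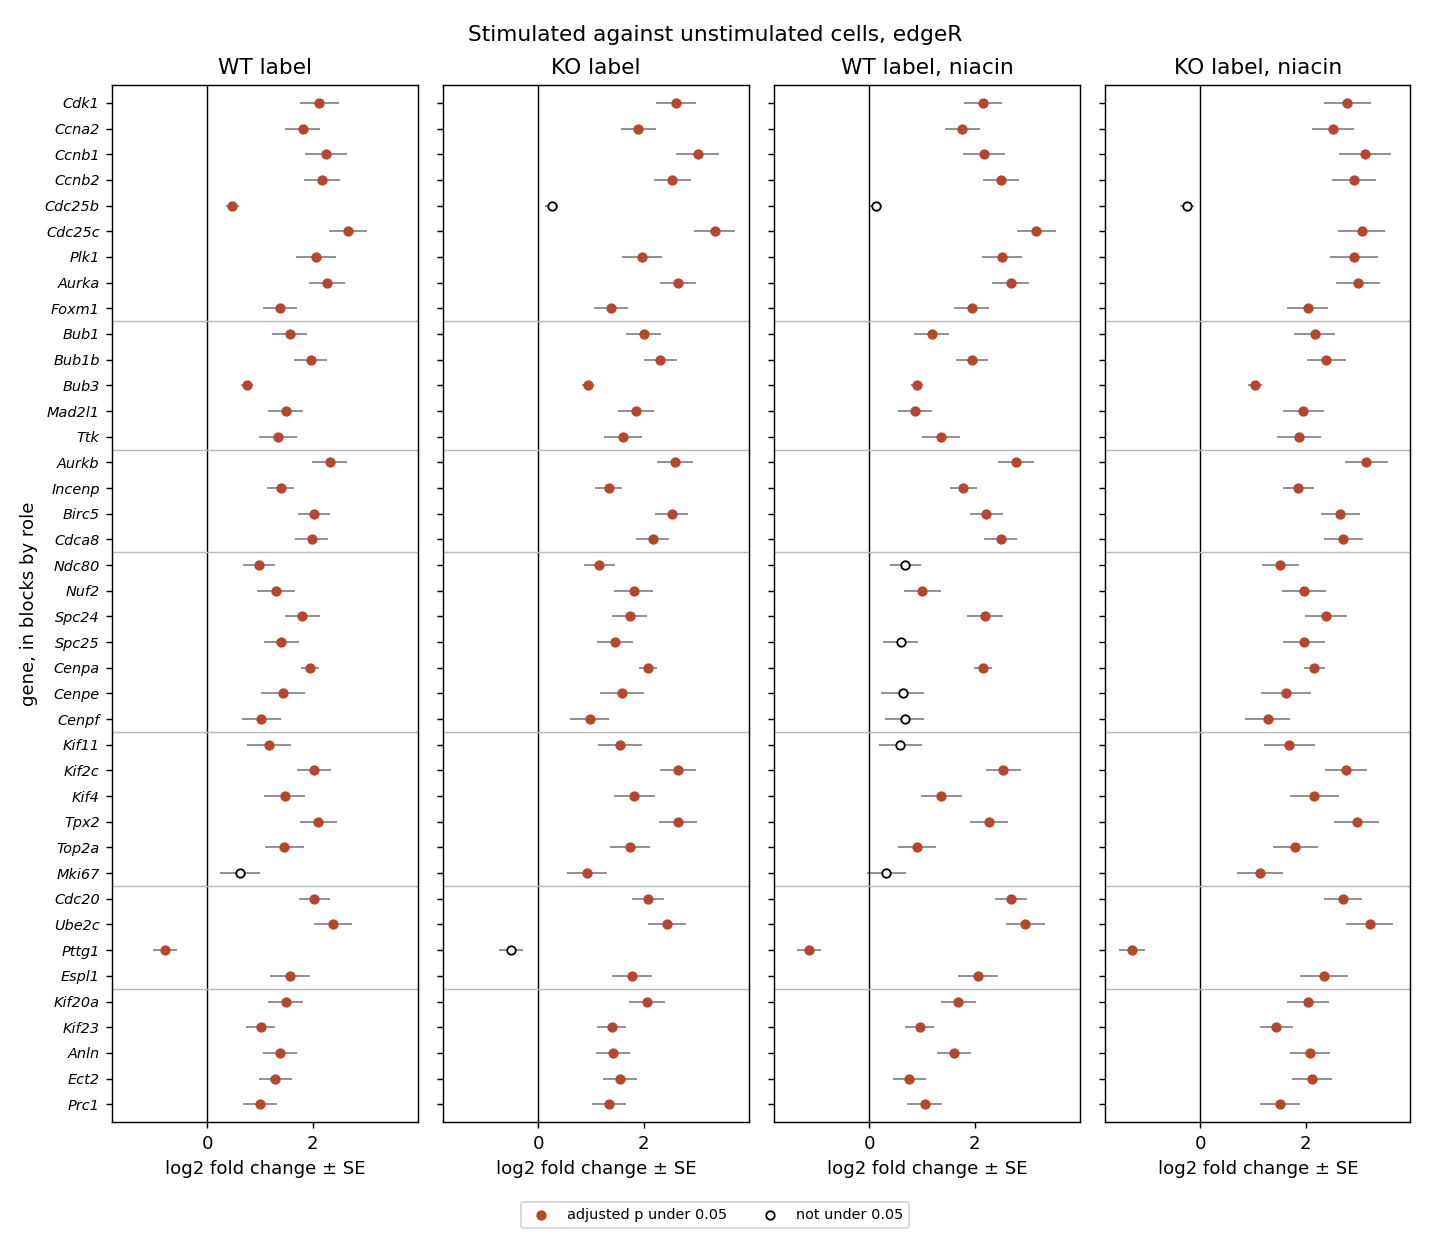
Log2 fold change of each gene between stimulated and unstimulated cells (x axis, points with standard errors) in the 4 backgrounds (panels); filled points have an adjusted p under 0.05 by edgeR. Nearly all genes lie to the right of 0 in each panel, Pttg1 lies to the left, and 6 open points among kinetochore, motor and chromosome genes appear in wild-type-labelled cells with niacin.

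Promoter sequences are shown for genes that rose strongly and for Cdc25b. By edgeR it rose by 0.48 on the log2 scale in wild-type-labelled cells without niacin and passed the threshold in no other background. Late cell cycle genes are known to carry CCAAT boxes, bound by NF-Y, paired with a cell cycle genes homology region (CHR, TTTGAA). The CHR is bound by the MuvB complex with B-Myb or its repressive partners. RefSeq promoter windows (GRCm38.p6, 250 bases before to 50 bases after the start) were matched by symbol for 32 of the 40 genes, giving 35 entries. TTTGAA, searched on both strands, was in 24 of the 32 genes and in 77.1% of the entries, against 17.9% of all 32851 entries. CCAAT, searched on both strands, was in 25 of the 32 genes and in 80.0% of entries, against 37.4% of all, and both motifs were in 21 genes and in 68.6% of entries, against 6.95% of all. Motifs that overlap each other were each counted. Kif20a, Aurkb, Cdc25c, Ccna2, Tpx2, Spc24, Incenp and Foxm1 had no entry. The 150 bases before the RefSeq start follow for 4 genes, 5′ to 3′ on the gene's strand, with CCAAT and TTTGAA, or either motif as read on the opposite strand, in capitals.
Ube2c, chr2:164769779-164769928, plus strand: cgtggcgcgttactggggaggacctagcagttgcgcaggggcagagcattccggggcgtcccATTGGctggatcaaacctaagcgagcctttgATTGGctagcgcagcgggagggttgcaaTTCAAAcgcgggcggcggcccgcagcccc
Cdc20, chr4:118437344-118437493, minus strand: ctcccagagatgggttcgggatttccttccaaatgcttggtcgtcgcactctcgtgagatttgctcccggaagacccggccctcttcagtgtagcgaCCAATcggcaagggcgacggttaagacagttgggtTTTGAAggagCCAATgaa
Cdk1, chr10:69352913-69353062, minus strand: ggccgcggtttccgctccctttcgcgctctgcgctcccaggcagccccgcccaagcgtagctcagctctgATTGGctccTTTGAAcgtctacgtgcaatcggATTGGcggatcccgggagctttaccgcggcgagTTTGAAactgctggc
Cdc25b, chr2:131186798-131186947, plus strand: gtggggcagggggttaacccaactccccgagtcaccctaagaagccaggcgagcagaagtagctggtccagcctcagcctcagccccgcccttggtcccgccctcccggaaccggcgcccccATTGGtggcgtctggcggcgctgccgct
Ube2c, Cdc20 and Cdk1 had both motifs in the stretch shown, and Cdc25b had 1 CCAAT box and no TTTGAA. The shown stretch reaches 31, 9 and 26 bases into the gene as the deposited table places it for Ube2c, Cdc20 and Cdk1, and 0 for Cdc25b. The Pttg1 window held neither motif, but its 150 bases before the RefSeq start lie inside the gene as the deposited table places it. The windows of Kif2c, Cdca8 and Kif4 also lie wholly inside their genes as so placed, and their motifs are counted above. Among the 8 matched genes without TTTGAA were Birc5, Bub1, Ccnb1, Cenpe, Mad2l1 and Nuf2, which rose in each of the 4 backgrounds except for Cenpe in wild-type-labelled cells with niacin, so these letters were not present in the window of every gene that rose. Mki67, Kif11, Cenpf and Spc25, which missed the threshold in wild-type-labelled cells with niacin, had both motifs in their windows. Ndc80 and Cenpe, which missed it there as well, had only TTTGAA and only CCAAT.

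Genes of mitotic entry rose by between 1.38 (Foxm1, the transcription factor of the late cell cycle) and 2.67 (Cdc25c, a Cdk1-activating phosphatase) on the log2 scale in wild-type-labelled cells without niacin, apart from Cdc25b. Ccnb2, a cyclin B (chr9:70407692-70421547, minus strand), had the highest level per kilobase of exon among the 40 genes over the stimulated libraries and the next to highest over the unstimulated ones. Its CPM in unstimulated wild-type-labelled libraries 1 to 3 was 120, 60.6 and 59.98, and in stimulated ones 353, 377 and 367. In knockout-labelled libraries it was 99.0, 44.9 and 48.1 before and 368, 365 and 391 with stimulation. With niacin the unstimulated libraries gave 108, 55.5 and 32.0 (wild-type label) and 45.6 and 53.7 (knockout label), and the stimulated ones 387, 381 and 335 (wild-type label) and 366, 380 and 377 (knockout label). The lowest stimulated library thus lay far above the highest unstimulated one, and the 4 stimulated groups covered nearly the same range. The log2 fold change of Ccnb2 was 2.19 ± 0.34 (SE; edgeR adjusted p = 3.18e-05) in wild-type-labelled and 2.55 ± 0.35 (adjusted p = 5.01e-06) in knockout-labelled cells, and 2.498 ± 0.35 and 2.91 ± 0.42 with niacin. The other entry genes that rose in all 4 backgrounds were Cdk1, the cyclins Ccna2 and Ccnb1, Cdc25c, Plk1, Aurka and Foxm1. Their log2 fold changes lay between 1.38 and 2.67 without and 1.77 and 3.17 with niacin in wild-type-labelled cells, and Cdc25c, at 28.2 to 46.4 CPM when stimulated, was at 2.56 to 9.62 CPM when unstimulated.

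Cdc25b, another Cdk1-activating phosphatase (chr2:131186949-131198497, plus strand), behaved unlike its relative Cdc25c. Its CPM was 212, 188 and 183 in unstimulated and 289, 277 and 247 in stimulated wild-type-labelled libraries, which did not overlap. The rise was 0.48 ± 0.12 on the log2 scale (edgeR adjusted p = 0.00301). In knockout-labelled libraries it was 199, 213 and 185 unstimulated and 248, 231 and 234 stimulated, without overlap, and the edgeR difference was 0.25 ± 0.12 (adjusted p = 0.0809). With niacin the unstimulated libraries stood higher, at 228, 271 and 316 (wild-type label) and 283 and 276 (knockout label), and the stimulated ones at 309, 307 and 271 and at 231, 247 and 224. With niacin the libraries overlapped under the wild-type label, while under the knockout label every stimulated library lay below every unstimulated one. The differences with niacin were 0.12 ± 0.12 (adjusted p = 0.404) and -0.25 ± 0.13 (adjusted p = 0.121), and the last passed the threshold as a fall with DESeq2 (-0.33, adjusted p = 0.0248). Per kilobase of exon, Cdc25b ranked 1st of the 40 genes over the unstimulated libraries and 12th over the stimulated ones.

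**Figure D3:**
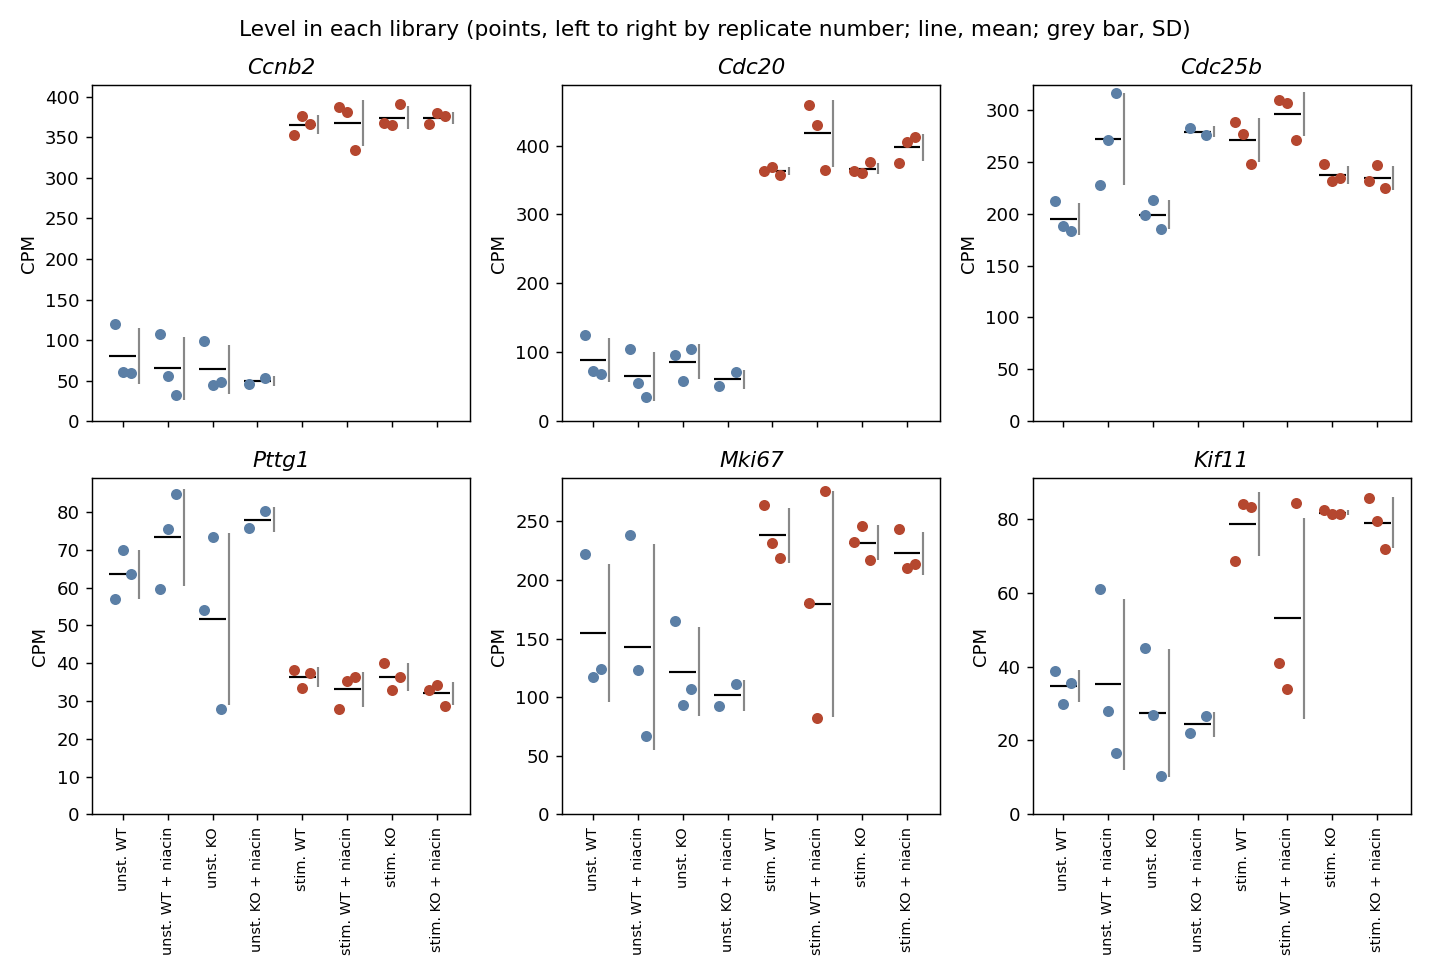
CPM (y axis, from 0) of 6 genes in each library of the 8 groups (x axis; blue unstimulated, red stimulated), with the group mean as a line and the SD as a grey bar. Ccnb2 and Cdc20 rise in every background, Pttg1 is lower in stimulated than in most unstimulated libraries, Cdc25b is higher with niacin when unstimulated, and Mki67 and Kif11 spread widely within groups.

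The 5 spindle checkpoint genes (the kinases Bub1 and Ttk, the pseudokinase Bub1b, Bub3 and Mad2l1) rose in all 4 backgrounds. Bub3, which carries the Bub kinases to kinetochores (chr7:131560222-131571895, plus strand), had the smallest response of the group in 3 of the 4 backgrounds, Mad2l1 having a smaller one in wild-type-labelled cells with niacin. Its CPM was 237, 224 and 210 in unstimulated and 356, 383 and 389 in stimulated wild-type-labelled libraries, and 224, 197 and 204 against 405, 399 and 404 in knockout-labelled ones. With niacin it was 248, 204 and 195 against 410, 446 and 361 (wild-type label) and 200.2 and 213 against 399, 426 and 447 (knockout label). The groups were well apart and libraries of a group were close, and the log2 fold changes were 0.75 ± 0.11, 0.95 ± 0.11, 0.91 ± 0.11 and 1.04 ± 0.13 (edgeR adjusted p between 1.1e-06 and 2.26e-05). Bub1b, which inhibits Cdc20 as BubR1, had the largest response of the group in each background, 1.96 ± 0.31 in wild-type-labelled and 2.32 ± 0.31 in knockout-labelled cells. Mad2l1, the Cdc20 inhibitor Mad2, was at 151, 189 and 177 CPM in stimulated wild-type-labelled libraries but at 78.4, 103 and 179 with niacin, where its rise of 0.87 ± 0.33 had an adjusted p of 0.0316. That call was lost without unstimulated library 2 (adjusted p = 0.104) or 3 (0.155) or stimulated library 3 (0.239) of those niacin groups.

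All 4 genes of the chromosomal passenger complex, which corrects faulty attachments, rose in all 4 backgrounds. Aurkb, its kinase Aurora B (chr11:69045647-69051664, plus strand), was at 117, 51.5 and 59.0 CPM in unstimulated and 353, 401 and 386 in stimulated wild-type-labelled libraries. In knockout-labelled libraries it was 77.8, 43.9 and 68.4 against 361, 392 and 395. With niacin it was 94.4, 49.3 and 26.1 against 401, 411 and 358 (wild-type label) and 39.5 and 47.3 against 384, 372 and 403 (knockout label). All stimulated libraries lay above all unstimulated ones, and they lay close together. The log2 fold changes were 2.33 ± 0.34, 2.59 ± 0.34, 2.78 ± 0.34 and 3.15 ± 0.41 (edgeR adjusted p between 1.31e-06 and 1.23e-05). Birc5 (survivin) and Cdca8 (borealin), which target the kinase to centromeres, rose by 2.02 and 1.98 in wild-type-labelled cells without niacin, and Incenp, the scaffold, by 1.39.

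The 7 kinetochore and centromere genes all rose in 3 backgrounds, and 3 of them, Nuf2, Spc24 and Cenpa, did so in wild-type-labelled cells with niacin. Cenpa, the histone H3 variant that marks centromeres (chr5:30666777-30674830, plus strand), was at 138, 89.97 and 97.4 CPM in unstimulated and 440, 402 and 420.0 in stimulated wild-type-labelled libraries. Its other unstimulated libraries lay between 79.7 and 123 CPM and its other stimulated ones between 378 and 490.2, and it rose by 1.95 ± 0.17, 2.08 ± 0.17, 2.17 ± 0.17 and 2.16 ± 0.20 (edgeR adjusted p between 3.41e-09 and 5.33e-08). Ndc80, Nuf2, Spc24 and Spc25 form the 4-part Ndc80 complex that grips microtubules. In stimulated wild-type-labelled libraries with niacin, Spc24 was at 176, 179 and 139 CPM while Nuf2 was at 52.1, 52.9 and 84.3, Ndc80 at 52.0, 45.3 and 82.6, and Spc25 at 36.2, 40.2 and 81.1. Libraries 1 and 2 were thus above library 3 for Spc24 and below it for its 3 partners. Without niacin the stimulated libraries lay between 134 and 149 for Spc24, 72.0 and 96.4 for Nuf2, 70.0 and 85.8 for Ndc80, and 74.1 and 104 for Spc25. The response with niacin was 2.20 ± 0.34 for Spc24 (edgeR adjusted p = 1.95e-05) and 1.01 ± 0.35 for Nuf2 (adjusted p = 0.0217), and it was 0.68 ± 0.30 for Ndc80 (0.0578) and 0.60 ± 0.33 for Spc25 (0.134). The Nuf2 call was lost without unstimulated library 2 (adjusted p = 0.063) or 3 (0.118) or stimulated library 3 (0.106) of the niacin groups.

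Cenpe, a kinetochore motor, and Cenpf, a kinetochore coat protein, were the other 2 of this group that missed the threshold there, at 0.64 ± 0.41 (edgeR adjusted p = 0.194) and 0.67 ± 0.36 (0.125). Ndc80, Spc25, Cenpe and Cenpf are described here because of these values. All 4 passed with offsets that remove each library's trend with GC content (log2 fold changes 1.38, 1.24, 1.22 and 1.23, adjusted p between 0.000226 and 0.0109) and without unstimulated library 1 of the wild-type-labelled cells with niacin (1.07, 1.13, 1.28 and 1.22, adjusted p between 0.0068 and 0.0148). Without stimulated library 2 of that background Ndc80, Cenpe and Cenpf passed as well (adjusted p between 0.0281 and 0.043). The response with niacin minus that without it, in wild-type-labelled cells, was -0.30 ± 0.42, -0.81 ± 0.47, -0.80 ± 0.58 and -0.36 ± 0.51 for these genes (adjusted p between 0.681 and 0.876), so no difference of response was detected. The rises of Cenpf and Ndc80 elsewhere were also close to the threshold. That of Cenpf in wild-type-labelled cells (1.03 ± 0.37, adjusted p = 0.0269) was lost without unstimulated library 2 or 3 or stimulated library 1 (adjusted p between 0.0919 and 0.0923). In knockout-labelled cells (0.98 ± 0.37, adjusted p = 0.0301) it was lost without unstimulated library 2 or 3 or stimulated library 1 or 2 (between 0.0722 and 0.119), and with niacin without either unstimulated library (0.109 and 0.0716). Ndc80 in wild-type-labelled cells (adjusted p = 0.0109) was lost without unstimulated library 3 (0.052), and Cenpe in knockout-labelled cells with niacin (0.00852) without unstimulated library 2 (0.0553) or 3 (0.0661).

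Of the spindle motors and chromosome proteins, Tpx2, Kif2c, Kif4 and Top2a rose in all 4 backgrounds. Tpx2, which activates Aurora A on spindle fibres (chr2:152847964-152895321, plus strand), was at 105, 57.8 and 58.3 CPM in unstimulated and 283, 343 and 326 in stimulated wild-type-labelled libraries. Over all libraries it ran from 32.0 to 105 unstimulated and from 261 to 387 stimulated, with no overlap, and rose by 2.10 ± 0.35, 2.65 ± 0.36, 2.28 ± 0.35 and 2.97 ± 0.43 (edgeR adjusted p between 4.55e-06 and 6.38e-05). Kif11, the motor Eg5 that separates the spindle poles (chr19:37376403-37421859, plus strand), was at 38.7, 29.9 and 35.7 CPM in unstimulated and 68.5, 83.9 and 83.0 in stimulated wild-type-labelled libraries. With niacin it was 61.0, 27.9 and 16.6 against 40.9, 33.9 and 84.3, and these overlapped: unstimulated library 1 lay above stimulated libraries 1 and 2. In knockout-labelled libraries Kif11 was 45.1, 26.9 and 10.4 against 82.4, 81.4 and 81.2, and with niacin 21.98 and 26.7 against 85.6, 79.5 and 71.7. It rose by 1.17 ± 0.42 (adjusted p = 0.0262), 1.56 ± 0.42 (0.00413) and, in knockout-labelled cells with niacin, 1.70 ± 0.49 (0.00711), and its value in wild-type-labelled cells with niacin was 0.60 ± 0.41 (0.231). The first call was lost without unstimulated library 2 or 3 or stimulated library 2 or 3 (adjusted p between 0.0611 and 0.0859), and the third without unstimulated library 2 (0.0752). The value with niacin in wild-type-labelled cells became 1.26 (0.0166) without unstimulated library 1 and 1.27 (0.00528) with GC offsets.

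Mki67, which encodes the proliferation marker Ki-67 (chr7:135689784-135716361, minus strand), had smaller fold changes than most of the 40 genes. Its CPM was 223, 118 and 124 in unstimulated and 264, 232 and 219 in stimulated wild-type-labelled libraries, so unstimulated library 1 lay inside the stimulated range. In knockout-labelled libraries it was 165, 93.1 and 107 against 232, 246 and 217, and with niacin 92.3 and 111 against 243, 211 and 214. In wild-type-labelled libraries with niacin it was 239, 123 and 66.7 against 180.1, 82.5 and 276, which overlapped. The log2 fold change was 0.62 ± 0.38 (edgeR adjusted p = 0.183) and, with niacin, 0.33 ± 0.38 (0.474) in wild-type-labelled cells, where it became 0.92 (0.0468) without unstimulated library 1. It was 0.93 ± 0.38 (adjusted p = 0.0451) and, with niacin, 1.13 ± 0.44 (0.0368) in knockout-labelled cells. The first of these 2 calls was lost on leaving out any library of its 2 groups except unstimulated library 1 (adjusted p between 0.0666 and 0.145), and the second on leaving out any library of its groups (between 0.0532 and 0.194; without an unstimulated library, 1 is left there and is assumed to vary like the other groups). With other settings Mki67 passed in wild-type-labelled cells without niacin (0.63, adjusted p = 0.0265 with the compared groups only, and 0.63, 0.00341 without the filter on low counts), and its knockout-labelled call was lost with RLE size factors (0.85, 0.0606). The response in knockout-labelled minus wild-type-labelled cells was 0.31 ± 0.53 (adjusted p = 0.865). Top2a, topoisomerase II alpha, rose by 1.46 ± 0.37 in wild-type-labelled cells and by 0.91 ± 0.37 (adjusted p = 0.0425) with niacin, a call lost without unstimulated library 2 (0.137) or 3 (0.201) or stimulated library 3 (0.208).

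Among the anaphase genes, Cdc20, Ube2c and Espl1 rose in all 4 backgrounds. Cdc20, the APC/C activator that the checkpoint restrains (chr4:118432901-118437352, minus strand; promoter above), was at 125, 73.4 and 68.1 CPM in unstimulated and 363, 370 and 357 in stimulated wild-type-labelled libraries. Over all 23 libraries it ran from 35.6 to 125 unstimulated and from 357 to 459 stimulated, with no overlap. It rose by 2.03 ± 0.30, 2.08 ± 0.30, 2.69 ± 0.30 and 2.71 ± 0.36 (edgeR adjusted p between 4.56e-07 and 1.37e-05). Ube2c, the ubiquitin-conjugating enzyme of the APC/C, rose by between 2.38 ± 0.36 and 3.22 ± 0.44, and Espl1, separase, by between 1.58 ± 0.38 and 2.35 ± 0.45.

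Pttg1, which encodes securin, the inhibitor of separase (chr11:43420250-43426251, minus strand), went the other way. Its CPM was 56.9, 69.9 and 63.7 in unstimulated and 38.2, 33.4 and 37.3 in stimulated wild-type-labelled libraries. With niacin it was 59.6, 75.5 and 84.8 against 27.8, 35.2 and 36.4, and in knockout-labelled libraries with niacin 75.7 and 80.3 against 32.9, 34.3 and 28.7. In these 3 backgrounds every stimulated library lay below every unstimulated one. In knockout-labelled libraries without niacin it was 54.1, 73.3 and 27.99 against 40.2, 32.8 and 36.4, and the low unstimulated value was that of library 3, the library with the fewest counts. By edgeR, Pttg1 fell by 0.81 ± 0.23 on the log2 scale under the wild-type label (adjusted p = 0.00685), by 1.15 ± 0.23 (0.000317) with niacin and by 1.29 ± 0.25 (0.000283) in knockout-labelled cells with niacin. In knockout-labelled cells without niacin the value was -0.51 ± 0.23 (adjusted p = 0.0633), and without library 3 it was -0.81 (0.000373). Per kilobase of exon, Pttg1 ranked 5th of the 40 genes over unstimulated and 29th over stimulated libraries. The transcripts of separase and of its inhibitor therefore moved in opposite directions in the 3 backgrounds where Pttg1 fell, and their proteins were not measured here.

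The 5 cytokinesis genes rose in all 4 backgrounds. They encode the midzone kinesins Kif20a and Kif23, the bundling protein Prc1, the contractile ring scaffold Anln and the RhoA activator Ect2. Kif20a was at 86.8, 47.3 and 49.9 CPM in unstimulated and 173, 177 and 167 in stimulated wild-type-labelled libraries, and over all libraries at 24.2 to 86.8 and 146 to 197, with no overlap. It rose by 1.49 ± 0.33, 2.06 ± 0.34, 1.69 ± 0.34 and 2.05 ± 0.40 (edgeR adjusted p between 4.27e-05 and 0.00113). Its exons share 33.2% of their bases with those of Cdc23 on the opposite strand, and no source used here states whether the counting used strand, so reads of the pair may not be told apart. By edgeR, Cdc23 itself, an APC/C subunit, was at 0.04 ± 0.17 (adjusted p = 0.875) under the wild-type label and rose by 0.47 ± 0.17 (0.0228) under the knockout label, without niacin. The same holds for smaller shares of Ube2c (22.8%, with Tnnc2, which had 0 counts), Kif4 (15.1%, with Pdzd11), Ccna2 (12.5%, with Exosc9) and Prc1 (11.1%, with Rccd1). The Prc1 rise in wild-type-labelled cells (1.00 ± 0.32, adjusted p = 0.0166) was lost without unstimulated library 2 (0.069) or 3 (0.0751), and with niacin (1.05 ± 0.33, 0.0105) without unstimulated library 3 (0.0645). That of Ect2 with niacin in wild-type-labelled cells (0.76 ± 0.31, 0.0471) was lost without any one of unstimulated libraries 2 and 3 and stimulated libraries 1 and 3 (between 0.0727 and 0.235).

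The other genes of mitosis, 130 genes in 8 lists that hold none of the 40, were mixed, and from each list the genes with the highest and lowest log2 fold change in wild-type-labelled cells are named. Without niacin 87 of the 130 rose and 9 fell under the wild-type label, and 91 rose and 8 fell under the knockout label. With niacin 77 rose and 17 fell (wild-type label) and 95 rose and 9 fell (knockout label), so the medians of 1.00, 1.15, 0.83 and 1.36 were below those of the 40 genes in each background. Of 32 other kinetochore and centromere genes, 25 and 24 rose in wild-type-labelled and knockout-labelled cells. Cenpp, of the inner kinetochore, rose by 2.59 ± 0.32 and 2.55 ± 0.32, and Mis12, of the outer kinetochore, fell by 0.55 ± 0.22 (edgeR adjusted p = 0.0499) in the first and was at 0.06 ± 0.22 (0.827) in the second. Of 20 other checkpoint and entry regulators 15 and 13 rose. Cks2, a small partner of Cdk1, rose by 2.48 ± 0.32 and 2.64 ± 0.32, and Mad1l1, which recruits Mad2, was at -0.17 ± 0.18 and 0.38 ± 0.18 (adjusted p = 0.437 and 0.0724). Of 24 other spindle and centrosome genes 19 and 20 rose and 1 fell in each. Psrc1 rose by 2.99 ± 0.35 and 1.89 ± 0.33, and Numa1, which anchors spindle poles, fell by 0.82 ± 0.15 and 0.92 ± 0.15. Of 9 other cytokinesis genes 6 and 6 rose, with Sapcd2 at 2.05 ± 0.49 and 1.16 ± 0.48, and Rhoa at 0.20 ± 0.11 and 0.27 ± 0.11 (adjusted p = 0.17 and 0.051).

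Lists for cohesin, condensin, the APC/C, MuvB and DNA replication differed in their counts. Of 10 cohesin genes, which hold sister chromatids together, 1 rose and 5 fell under the wild-type label, or 7 with niacin, and 2 rose and 5 fell under the knockout label, with niacin or without it. Cdca5 (sororin), which protects cohesin until mitosis, rose by 1.67 ± 0.38 and 2.08 ± 0.38 in the backgrounds without niacin, and the cohesin loader Nipbl fell by 1.84 ± 0.27 and 1.73 ± 0.27. Of 8 condensin genes 4 and 7 rose and 0 and 1 fell, with Ncapd2 at 1.78 ± 0.24 and 1.996 ± 0.25. Smc4 was at -0.79 ± 0.35 (edgeR adjusted p = 0.069) in wild-type-labelled cells and fell by 1.14 ± 0.35 in knockout-labelled cells. Of 17 APC/C subunits and regulators 13 and 16 rose and 0 fell, Ube2s, which extends ubiquitin chains, by 1.57 ± 0.23 and 1.37 ± 0.23. Of 10 genes of MuvB and its partners 4 and 3 rose and 2 and 1 fell. Mybl2 (B-Myb), the activating partner, rose by 1.64 ± 0.34 and 2.16 ± 0.35, while Rbl2 (p130), the partner of the repressive form, fell by 1.42 ± 0.16 and 1.47 ± 0.16. Of 43 DNA replication genes 33 and 38 rose without niacin and 35 and 41 with it, and 0 fell. Their median was 1.05, 1.43, 1.06 and 1.79, below that of the 40 mitotic genes in each background, and the genes at the ends of that list were Gmnn (1.88 ± 0.25 and 2.38 ± 0.26) and Mcm4 (0.24 ± 0.20, adjusted p = 0.339, and 0.68 ± 0.20, 0.0089).

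Levels between genes were compared per kilobase of exon. Averaged over unstimulated libraries the order began with Cdc25b, Ccnb2, Cdc20, Incenp and Pttg1, at 62.3, 43.2, 41.0, 37.3 and 32.8 CPM per kilobase, and ended with Anln at 2.02. Over stimulated libraries it began with Ccnb2, Cdc20, Ube2c, Plk1 and Aurkb, at 242, 207, 182, 134 and 131, and ended with Cenpf at 4.33. In stimulated wild-type-labelled cells Ccnb2, at 239 ± 7.62 (SD, n = 3), Cdc20, at 194 ± 3.41, and Ube2c, at 175 ± 9.22, were apart by more than their spread, while Aurkb, at 129 ± 8.41, and Plk1, at 124 ± 6.62, were not.

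Libraries of a group differed more in 3 of the 4 unstimulated groups than in the stimulated ones. The highest library was a median of 1.65 times the lowest over the 40 genes in unstimulated wild-type-labelled cells, 3.36 times with niacin, 2.16 times in knockout-labelled cells, and 1.22 times in the 2 libraries of knockout-labelled cells with niacin. In the stimulated groups these medians were 1.14, 1.31, 1.09 and 1.14. The genes moved together: in unstimulated wild-type-labelled cells with niacin, library 1 was the highest and library 3 the lowest for 38 of the 40 genes. Cdc25b and Pttg1 were the other 2, with library 3 the highest and library 1 the lowest. In those 2 libraries Ube2c was at 117 and 29.0 CPM, Plk1 at 86.4 and 22.99, and Top2a at 385 and 96.99. The median log2 ratio of library 1 to library 3 was 1.74 over the 40 genes, 1.00 over the 43 DNA replication genes, all 43 of which were higher in library 1, and -0.03 over 8 CD4 T cell markers, against -0.00 over all genes tested. In unstimulated wild-type-labelled cells without niacin library 1 was the highest for 37 of 40 genes (all but Mad2l1, Spc25 and Pttg1), with a median log2 ratio to libraries 2 and 3 of 0.69, against 0.02 over all genes. Library 1 of unstimulated knockout-labelled cells was the highest for 31 of 40 genes. In the 11 unstimulated libraries the summed CPM of the 40 genes therefore reached from 1646 (library 3, wild-type label with niacin) to 3916 (library 1 of that group), and the spread within that group was as wide as that over all unstimulated libraries.

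In other groups the genes split by base composition. In stimulated wild-type-labelled cells with niacin, Cenpe was at 58.4, 20.7 and 87.9 CPM, Kif11 at 40.9, 33.9 and 84.3, and Top2a at 334, 330.0 and 579, whereas Espl1 was at 185, 176 and 122, Plk1 at 341, 325 and 234, and Ube2c at 580.45, 549 and 444. Libraries 1 and 2 were low for the first 3 genes and high for the last 3. All 14 of the 40 genes with a GC content under 45% (longest GENCODE vM21 transcript) were lower in libraries 1 and 2 than in library 3, by a median log2 ratio of -0.78, while the 12 genes at 50% or more were higher, apart from Kif2c at a log2 ratio of 0, with a median of 0.26. The 14 genes between lay at a median of -0.03. Spearman's rho between GC content and this ratio was 0.87 over the 40 genes and 0.53 over 16860 genes, as a description over genes that share the same libraries, with the 45% and 50% limits chosen after the values were seen. The share of counts from mitochondrial genes was 0.187% and 0.216% in libraries 1 and 2 and 0.605% in library 3, and the part of this in the result was not tested. In unstimulated knockout-labelled cells, library 3, with a mitochondrial share of 0.407% against 0.795% and 0.643%, differed from libraries 1 and 2 in a like order (rho 0.61 over the 40 genes, 0.47 over all), from -1.74 for Ccnb1 to 1.13 for Plk1. In unstimulated wild-type-labelled cells without niacin, library 1, with a share of 0.346% against 0.937% and 0.802%, gave a rho of 0.62 over the 40 genes and 0.41 over all against libraries 2 and 3. In unstimulated wild-type-labelled cells with niacin, where the spread was widest, rho between GC content and the ratio of library 1 to 3 was 0.13 over the 40 genes. With GC offsets 37 of the 40 genes rose in wild-type-labelled cells with niacin, against 32 without them. With libraries 1 and 2 of the stimulated group left out, 33 rose (Ndc80, Spc25 and Cenpe gained a call, Ect2 and Prc1 lost theirs), and 37 did when unstimulated knockout-labelled library 3, outside this comparison, was left out as well. Either fit leaves 1 stimulated library in the comparison, assumed to vary like the other groups.

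**Figure D4:**
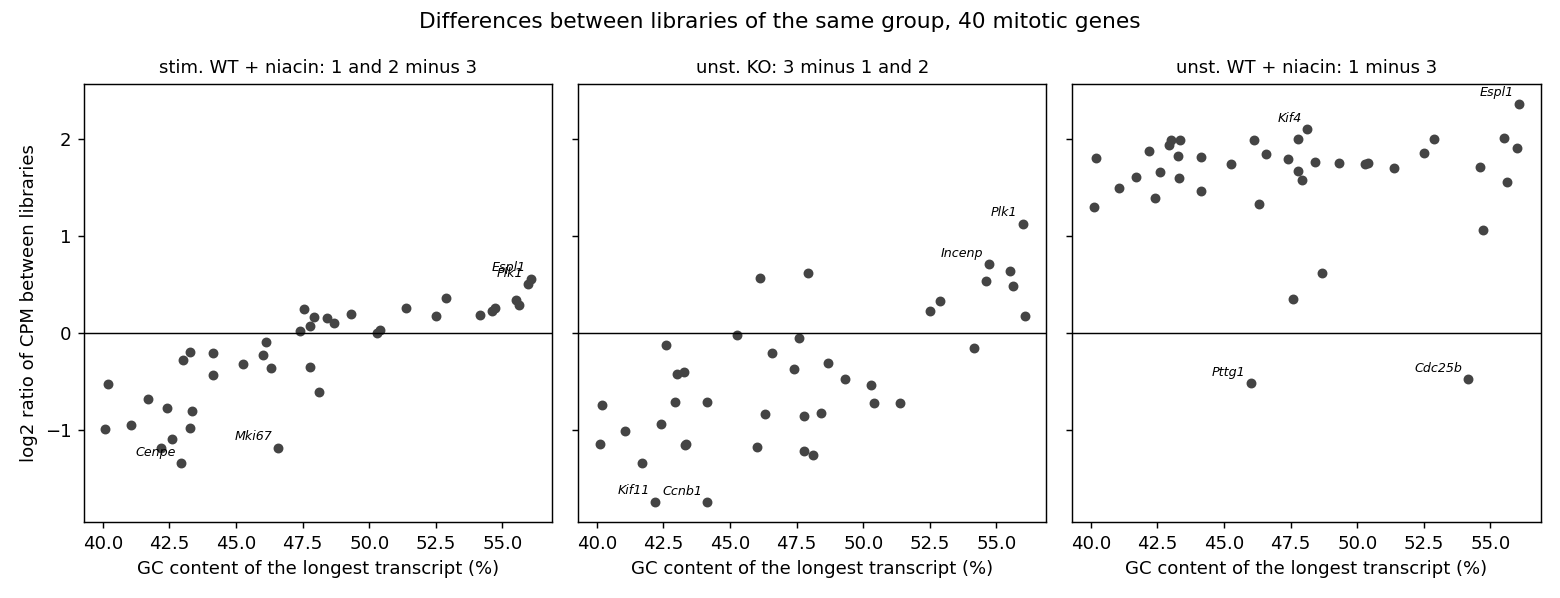
GC content of the longest transcript (x axis, percent) against the log2 ratio of CPM between libraries of the same group (y axis) for the 40 genes, in 3 groups (panels). Points rise with GC content in the first 2 panels (rho 0.87 and 0.61), and in the third nearly all lie well above 0 whatever their GC content (rho 0.13).

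Niacin changed none of the 40 genes past the threshold (edgeR, adjusted p under 0.05), and few of any genes. In unstimulated wild-type-labelled cells 0 of 40 passed (0% of all genes), 1 had an unadjusted p under 0.05 (2.71% of all genes), and DESeq2 called 1, Cdc25b. In unstimulated knockout-labelled cells 0 of 40 passed (0%), 3 had an unadjusted p under 0.05 (7.96%), and DESeq2 called 0. In stimulated wild-type-labelled cells 0 passed (0%), 1 had an unadjusted p under 0.05 (9.96%), and DESeq2 called 0. In stimulated knockout-labelled cells 0 passed (0.00592% of all genes), 0 had an unadjusted p under 0.05 (5.22%), and DESeq2 called 0. The median log2 fold changes of the 40 genes were -0.19, -0.25, -0.09 and 0.02. Their summed CPM in stimulated wild-type-labelled libraries was 8151 to 8353 with niacin and 8418 to 8695 without it, which did not overlap. In the other 3 niacin comparisons the ranges of the sums overlapped, and these sums were not tested. The 95% interval of a gene's log2 fold change reached, in the median gene, 0.68, 0.77, 0.67 and 0.67 to either side. Changes of about that size could thus have been missed. These widths use 1 spread per gene for all 8 groups. The median CV (SD as a percent of the mean) was 29.5% to 58.65% in unstimulated groups of 3 libraries. It was 13.9% in the group of 2, and 4.63% to 13.9% in stimulated groups. The widths may therefore be too narrow for unstimulated and too wide for stimulated cells. In unstimulated cells the sign of the median depended on single libraries, while 0 genes passed in any such fit. Under the wild-type label it was -0.75 without library 1 with niacin, where 26 of the 40 had an unadjusted p under 0.05 (smallest edgeR adjusted p 0.0911), but 0.11 without library 3 with niacin and 0.07 without library 1 of the cells without niacin. Under the knockout label, where the niacin group has no library 1, it was 0.15 without library 1 of the cells without niacin and -0.39 without library 2, where 10 genes had an unadjusted p under 0.05. Library 1 of the cells without niacin was the highest of its group for 31 of the 40 genes. Niacin and the missing library 1 thus cannot be told apart in the median of -0.25. In the fits with a library left out, the share of all genes with an unadjusted p under 0.05 was not counted. The counts of 26 and 10 therefore have no background beside them.

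In unstimulated wild-type-labelled cells Cdc25b had the smallest adjusted p of the 40 for niacin. In unstimulated cells with niacin it was higher by 0.48 ± 0.12 (edgeR adjusted p = 0.461; DESeq2 adjusted p = 0.0245) in wild-type-labelled and by 0.49 ± 0.13 (adjusted p = 0.608) in knockout-labelled cells, with all libraries with niacin above all those without it in both. In stimulated cells the values were 0.13 ± 0.12 and -0.02 ± 0.12. The response to stimulation with niacin minus that without it was -0.36 ± 0.17 (adjusted p = 0.66) and -0.51 ± 0.18 (adjusted p = 0.718) in these labels. Pttg1 (0.58 ± 0.25) and Plk1 (-0.94 ± 0.42) were the other 2 with an unadjusted p under 0.05 in unstimulated knockout-labelled cells, with edgeR adjusted p of 0.608 and 0.612. Without the filter on low counts Plk1 passed there (-0.91, adjusted p = 0.00238). Spc25 was that gene in stimulated wild-type-labelled cells, at -0.72 ± 0.33 (edgeR adjusted p = 0.485), where libraries 1 and 2 with niacin were the low ones. Without library 3 of that group 9 of the 40 had an unadjusted p under 0.05 and 0 passed. The share of all genes was not counted in that fit, and it was 9.96% with all libraries.

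**Figure D5:**
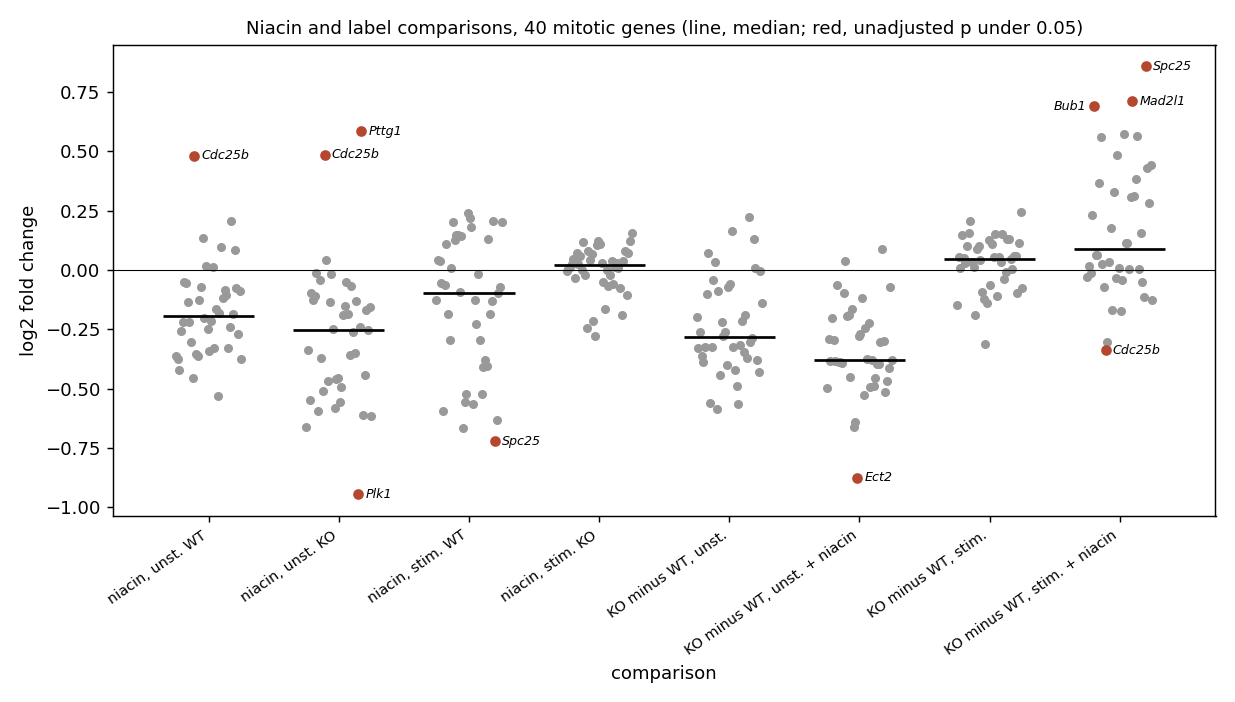
Log2 fold change of each of the 40 genes (points; line, median) in the 4 niacin and 4 label comparisons (x axis); named red points have an unadjusted p under 0.05 by edgeR, and none has an adjusted p under 0.05. The medians lie between -0.38 and 0.09, and Cdc25b is named in 3 of the 8 comparisons.

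The genotype label likewise changed none of the 40 genes past the threshold. In unstimulated cells 0 of 40 passed (0.0415% of all genes), 0 had an unadjusted p under 0.05 (10.4% of all genes), and DESeq2 called 0. With niacin 0 passed (0.0355%) and 1, the RhoA activator Ect2, had an unadjusted p under 0.05 (0.983%), by edgeR at -0.87 ± 0.36 (adjusted p = 1). In stimulated cells 0 passed (0.113%), 0 had an unadjusted p under 0.05 (8.45%), and DESeq2 called 0 here and in the comparison before. The spread used per gene was shared by all 8 groups, while the median CV in these 2 stimulated groups was 6.72% and 4.63%. Small label differences between stimulated cells could thus have been missed. In these 2 groups the summed CPM of the 40 genes was 8418 to 8695 (wild-type label) and 8761 to 8837 (knockout label). With niacin it was 8151 to 8353 and 8763 to 9038. Neither pair of ranges overlapped, while the ranges of the 2 labels did overlap in unstimulated cells, with niacin or without it. These sums were not tested. In stimulated cells with niacin 0 passed (1.44%), 4 had an unadjusted p under 0.05 (19.4%), and DESeq2 called 1, Cdc25b. These 4 were Cdc25b, at -0.34 ± 0.12 (edgeR adjusted p = 0.134), and Bub1, Mad2l1 and Spc25, at 0.69 ± 0.32, 0.71 ± 0.33 and 0.86 ± 0.33 (adjusted p between 0.165 and 0.241). The last 3 have GC contents of 41.0%, 40.1% and 42.6%, and libraries 1 and 2 of the wild-type-labelled group are the low ones for each. Without library 3 of that group 7 of the 40 had an unadjusted p under 0.05 and Spc25 passed (1.32, edgeR adjusted p = 0.0284). With all libraries 19.4% of all genes had an unadjusted p under 0.05. That share was not counted in this fit or in the other fits of this paragraph with libraries left out. With libraries 1 and 2 left out, which leaves 1 library on the wild-type side, 0 had an unadjusted p under 0.05, and the median over the 40 was 0.09 as it was with them. The medians of the 4 comparisons were -0.28, -0.38, 0.05 and 0.09. The first median was -0.65 with unstimulated knockout-labelled library 1 left out, where 17 genes had an unadjusted p under 0.05, and -0.05 with unstimulated wild-type-labelled library 1 left out. The second was -0.70 with unstimulated wild-type-labelled niacin library 3 left out, where 15 did, and 0.17 with library 1 of that group left out, and 0 genes passed in these fits. The knockout-labelled group of the second comparison has no library 1. The label and the missing library thus cannot be told apart in that median. The comparisons share libraries with the niacin comparisons and with those of stimulation.

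The 4 tests of a difference between responses also called none of the 40. The response to stimulation with niacin minus that without it gave 0 of 40 in wild-type-labelled cells (0% of all genes; 1 unadjusted, Cdc25b, background 7.36%) and 0 in knockout-labelled cells (0%; 2 unadjusted, Cdc25b and Pttg1, background 6.77%). The response of knockout-labelled minus wild-type-labelled cells gave 0 (0.00592%; 0 unadjusted, background 10.5%), and the niacin effect in stimulated cells, knockout label minus wild-type label, gave 0 (0%; 0 unadjusted, background 5.18%). DESeq2 called 0 of the 40 in each of these 4. The medians were 0.04, 0.24, 0.28 and 0.10, and the intervals reached a median of between 0.95 and 1.02 to either side. Differences of about that size could have been missed at this number of libraries. These intervals rest on the same spread per gene shared by all groups. The first median was 0.57 with unstimulated wild-type-labelled niacin library 1 left out, where 14 genes had an unadjusted p under 0.05, -0.23 with library 3 of that group left out and -0.20 with unstimulated wild-type-labelled library 1 left out. The second was -0.13 and the third 0.61 with unstimulated knockout-labelled library 1 left out, and the third was 0.07 with unstimulated wild-type-labelled library 1 left out. In these fits 0 genes passed, and the share of all genes with an unadjusted p under 0.05 was not counted.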

How the data were processed

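RNA of 23 cultures was isolated with TRIzol, amplified with SMART-seq V4 and sequenced as paired Illumina reads, per the labels' protocols. The deposited values are whole-number counts of reads per gene, made by the authors with Trimmomatic 0.38, STAR 2.7.0e and featureCounts 1.6.3 on GRCm38.p5 (mm10), per the submitters' processing notes. The annotation release and strand setting are not stated there. Here the counts were normalized with TMM factors, genes were filtered with filterByExpr (minimum count 10), and a mean per group was fitted over all 23 libraries (15 residual degrees of freedom, BCV 27.4%) with edgeR 4.0.16 in R 4.3.3. Quasi-likelihood p-values were adjusted by Benjamini-Hochberg over the 16882 genes tested, with a threshold of 0.05. Levels are counts per library size with TMM factors (CPM), and depth (13205565 to 30090018 counts) limits the low genes most. The 40 members and all lists were chosen with earlier results of these data known. Values per library were given, by rule, for the member of each role with the highest mean level per kilobase and for members whose call or direction differed from most of their role. Other genes named with values were chosen after these were seen. Alternatives were RLE scaling, DESeq2 1.42.0, no filter, the replicate number as a block, the compared groups alone, each library left out in turn and, chosen after seeing the data, GC offsets and the removal of libraries that stood apart. The steps were tested on simulated data. Correlations between libraries of the same replicate number ran from -0.18 to 0.29, with no comparison over 0.1 in all pairs. For niacin in unstimulated wild-type-labelled cells they were 0.29, 0.03 and 0.23 for numbers 1 to 3. Across numbers 1 and 3 they were -0.25 and -0.28. The labels do not say whether the numbers pair libraries, and the main fit treats libraries as unpaired.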

Additional observations from a re-analysis of the deposited data

How the results depend on the processing

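The values for whole comparisons were counts of members called higher or called lower. Of these, 449 equalled the main count or stayed within 1.5 times of it, and 17 did not. In the niacin, label and difference comparisons the main counts were 0, so there the tally mostly set 0 beside 0. Of the values for the members named by rule, in the stimulation comparisons only, 638 kept their side of the threshold. Another 18 gained a call, 20 lost one and 0 reversed. Pttg1 made the count of genes that fell in knockout-labelled cells 1 in place of 0 under RLE size factors, DESeq2, no filter on low counts, GC offsets and 3 libraries left out, and between 0 and 1 on leaving out 1 library (1 without unstimulated library 3). Cdc25b made that count with niacin 2 in place of 1 under RLE size factors, DESeq2, the compared groups only, GC offsets and 3 libraries left out. DESeq2 called 1 gene, Cdc25b, higher with niacin in unstimulated wild-type-labelled cells, and 1, Cdc25b, lower under the knockout label in stimulated cells with niacin. Without the filter, 1 gene, Plk1, fell with niacin in unstimulated knockout-labelled cells, 2 genes, Spc25 and Top2a, fell in stimulated wild-type-labelled cells, and 3 genes, Bub1, Mad2l1 and Spc25, were higher under the knockout label in stimulated cells with niacin. That last count was between 0 and 1 on leaving out 1 library. The cause of these changes was not tested. The shares of all genes called under these settings are not given here. Whether a setting called more genes of any kind can thus not be read from these counts. The count of genes that rose with stimulation in wild-type-labelled cells with niacin was 32, and lay between 29 and 37 under other settings and between 27 and 38 on leaving out 1 library (38 without unstimulated library 1, 27 without unstimulated library 3). With the replicate number as a block, 38, 38, 34 and 38 genes rose and 1, 0, 1 and 1 fell in the 4 stimulation comparisons, and 0 passed in the others. Whether the numbers pair the libraries is not stated. With the block, the member medians for niacin in unstimulated knockout-labelled cells and for the label in unstimulated cells with niacin were -0.03 and -0.16, against -0.25 and -0.38. A group left with 1 library is assumed to vary like the others.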
